A study of Mus musculus with 12 samples.

Results

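Mouse genes of cholesterol and fatty acid synthesis were followed across ovaries with and without tumors. The genes were chosen by name from the pathway, 46 in all, and 36 of them had a probe set in the table among 10949 genes measured. They cover 7 roles: 3 of 5 regulators of sterol-controlled transcription, 7 of 9 mevalonate and isoprenoid enzymes, 6 of 9 squalene and sterol enzymes, 4 of 5 cholesterol handling genes, all 5 fatty acid synthesis genes, 8 of 9 desaturases and elongases, and 3 of 4 acyl-CoA activating enzymes. The other 10 (Scap, Insig1, Acat2, Hmgcs1, Fdft1, Tm7sf2, Dhcr7, Soat1, Hacd1 and Acsl1) were not analysed here.

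RNA of whole ovaries from mice of 23 weeks, taken at diestrus, a phase of the estrous cycle, was hybridised to 12 expression arrays. The 6 control ovaries were Pgrcre/+ without a tumor, and the PgrBLsL ovaries were Pgrcre/+PgrBLsL/+, of which 3 carried a stage I tumor and 3 a stage II tumor. All groups therefore carry the Pgrcre allele, which places Cre under the progesterone receptor gene, and no group lacks it. Allele and tumor cannot be told apart against the controls, and the 6 controls serve both stage comparisons.

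The values are log2 levels, 1 per probe set and array, between 2.69 and 14.44, with array medians from 7.09 to 7.15. Inha, a granulosa gene, lay between 13.33 and 13.59 in the controls, and the oocyte gene Zp3 between 9.07 and 9.59, so ovarian cells were represented. Granulosa markers were lower in stage II for 5 of 6 genes, theca and interstitial markers for 6 of 6 and oocyte markers for 8 of 8, whereas macrophage markers were higher for 5 of 6. Of all genes, 11.2% were called lower and 9.81% higher in stage II. In whole tissue, fewer cells of a type and less RNA per cell cannot be told apart. Control replicates 1 and 4 stood apart from the other controls in many of the lipid genes, so the main counts and medians are given with and without them. The pair was picked from these values, and leaving it out lowers the control mean of genes in which it is high. Counts and adjusted p-values without the pair therefore describe how far results depend on it and are no tests. The labels call the samples bioreplicates without naming the animals, so p-values measure the spread between these samples, and the number of arrays limits the precision.

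Cells make cholesterol from acetyl-CoA through mevalonate, isoprenoids, squalene and lanosterol. When sterols in the endoplasmic reticulum are low, the carrier SCAP brings the SREBP transcription factors to the Golgi for cleavage, and the released factors switch on nearly every enzyme of the pathway together, whereas INSIG proteins hold them back when sterols are ample. Fatty acid synthesis shares the acetyl-CoA pool and is driven mainly by SREBP-1, and in the ovary cholesterol is the raw material of progesterone, androgen and estrogen.

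Promoter letters were read for the members because the SREBP factors act at promoters, usually beside NF-Y, the factor that binds CCAAT, and beside Sp1 at GC boxes. RefSeq's GRCm38.p6 promoter table held 28 of the 36 measured members, and the 250 bases before each start were searched on both strands. A gene with several starts was counted if any of its windows held the letters. The letters CCAAT (or ATTGG on the other strand) occurred in 23 of 28 members (82.1%) and in all 10 cholesterol synthesis enzymes with an entry (Cyp51, Ebp, Ggps1, Idi1, Lss, Mvd, Mvk, Nsdhl, Pmvk and Sc5d). Over all 27025 genes of the table the share was 37.5%, and over the 8765 measured genes it was 39.6%. Counted by window, it was 68.6% for the members and 34.7% for the measured genes. The Pmvk window at chr3:89459321-89459570 held none. The GC box letters GGGCGG were present in 19 of 28 members (67.9%), against 55.2% of measured genes. The E-box letters CACGTG were in 2 of 28 (7.14%), namely Sc5d and Elovl5, against 8.96%. The sterol regulatory element was searched as TCACNCCAC and was in 0 of 28, against 1.21% of measured genes, which says only that these exact letters are not in these windows. A match describes letters and is not evidence of binding.

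Windows of Idi1 (chr13:8885356-8885605, plus strand), Ebp (chrX:8193513-8193762, minus strand), Lss (chr10:76531355-76531604, plus strand) and Mvk (chr5:114444019-114444268, plus strand) are shown as examples of the cholesterol enzymes. Idi1 and Ebp are the members among these enzymes that were higher in stage II than in stage I, and Lss and Mvk had unadjusted p under 0.05 in stage I but passed in no comparison. Those of the neighbouring desaturase genes Fads2 (chr19:10101504-10101753, minus strand) and Fads3 (chr19:10041298-10041547, plus strand) are shown because their levels moved in opposite directions. Capitals mark CCAAT or ATTGG, and each sequence reads 5′ to 3′ on the gene's strand.
Idi1: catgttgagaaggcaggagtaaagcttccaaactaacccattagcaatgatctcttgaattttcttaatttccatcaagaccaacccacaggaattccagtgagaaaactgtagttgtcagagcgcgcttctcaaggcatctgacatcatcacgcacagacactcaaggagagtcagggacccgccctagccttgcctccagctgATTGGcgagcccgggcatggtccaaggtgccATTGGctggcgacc
Ebp: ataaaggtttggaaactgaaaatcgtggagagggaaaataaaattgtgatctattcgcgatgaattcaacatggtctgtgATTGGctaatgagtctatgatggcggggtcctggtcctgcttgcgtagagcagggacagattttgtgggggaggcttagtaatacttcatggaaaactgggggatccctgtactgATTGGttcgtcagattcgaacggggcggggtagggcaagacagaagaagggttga
Lss: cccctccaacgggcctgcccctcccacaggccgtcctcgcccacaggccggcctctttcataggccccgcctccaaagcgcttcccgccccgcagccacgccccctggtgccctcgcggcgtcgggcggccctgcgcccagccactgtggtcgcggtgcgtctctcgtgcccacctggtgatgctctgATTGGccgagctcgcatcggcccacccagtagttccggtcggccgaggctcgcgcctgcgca
Mvk: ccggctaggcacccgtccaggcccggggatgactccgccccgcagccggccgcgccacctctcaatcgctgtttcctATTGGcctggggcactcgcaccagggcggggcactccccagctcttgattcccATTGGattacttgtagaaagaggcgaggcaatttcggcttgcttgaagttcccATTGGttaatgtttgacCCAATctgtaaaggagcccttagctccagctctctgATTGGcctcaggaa
Fads2: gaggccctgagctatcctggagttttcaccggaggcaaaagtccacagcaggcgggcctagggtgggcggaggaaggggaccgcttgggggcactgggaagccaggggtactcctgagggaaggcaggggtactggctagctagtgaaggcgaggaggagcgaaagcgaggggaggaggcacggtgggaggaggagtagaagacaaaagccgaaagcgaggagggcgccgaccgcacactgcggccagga
Fads3: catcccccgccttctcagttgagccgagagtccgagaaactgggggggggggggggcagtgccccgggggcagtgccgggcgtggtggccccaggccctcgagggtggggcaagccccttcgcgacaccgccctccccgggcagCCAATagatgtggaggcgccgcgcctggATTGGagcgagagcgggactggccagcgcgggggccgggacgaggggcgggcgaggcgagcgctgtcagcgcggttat
Idi1 and Ebp each hold 2 such runs, Lss 1 and Mvk 5. Fads3 holds 2, and Fads2 holds 0.

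The cholesterol enzymes varied together from ovary to ovary, and among the controls they spread more than most genes did. The median standard deviation (SD) among the 6 controls was 0.45 for the 13 mevalonate, squalene and sterol enzymes, against 0.12 over all genes, and it was highest for Fdps, farnesyl diphosphate synthase, at 0.86. The 13, called cholesterol enzymes for short, include Acat1, of ketone body and isoleucine metabolism, and Ggps1, which serves prenylated proteins. Averaged over the 13 genes, each as its deviation from the control mean, the controls lay at 0.40, -0.34, -0.34, 0.50, -0.02 and -0.20 in the order of their numbers. The stage I ovaries lay at -0.68, -0.34 and -0.34, and the stage II ovaries at 0.55, -0.37 and -0.10. Control replicates 1 and 4 and stage II replicate 1 were therefore high and stage I replicate 1 was low, and the 3 groups overlapped.

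The same arrays were high or low in most of the enzymes. Control replicates 1 and 4 were the highest pair of controls in 10 of the 13 genes (76.9%, against 18.2% of all genes). Stage I replicate 1 was the lowest of its group in 10 (76.9%, against 37%), and stage II replicate 1 the highest of its group in 12 (92.3%, against 25%). All of these positions held together in 9 of 13 (69.2%, against 2.59% of all genes), and in 6 of 6 squalene and sterol enzymes. These arrays were picked from their values, so the counts describe the pattern and carry no test.

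**Figure D1:**
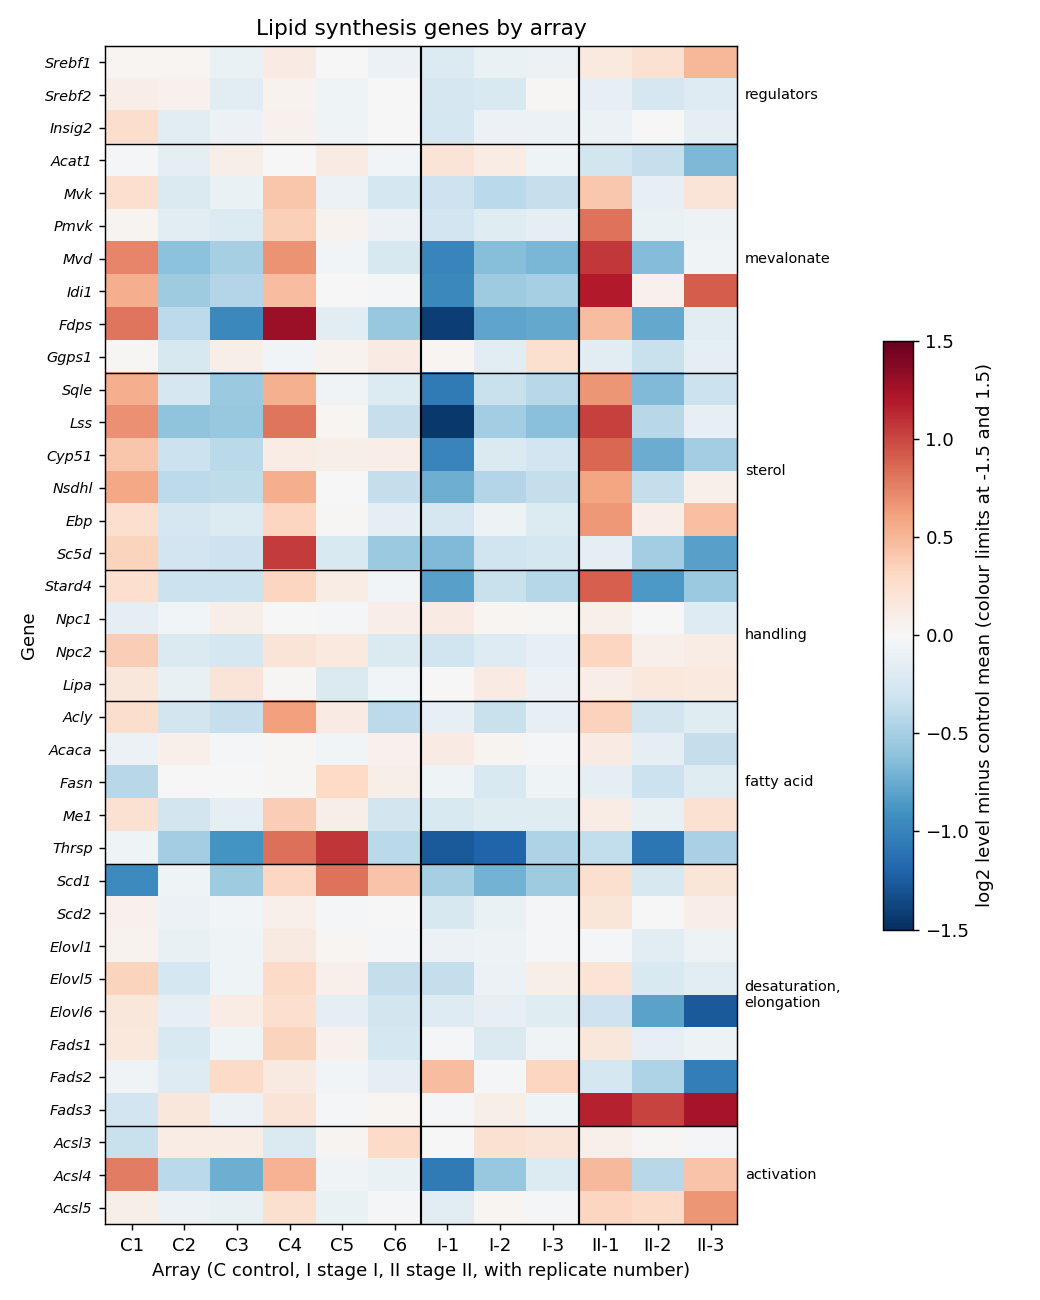
Heat map of the 36 measured genes (vertical axis, by role) on the 12 arrays (horizontal axis: C control, I stage I, II stage II, with replicate number); the colour is the log2 level minus the gene's control mean. Most mevalonate and sterol genes are red in C1, C4 and II-1 and blue in I-1, with Acat1, Ggps1 and Sc5d as exceptions. Fads3 is red in all 3 stage II arrays.

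Markers of luteal cells, the steroid-making cells formed after ovulation, differed between many of the same arrays. Hsd17b7 was left out because it also acts in sterol synthesis. Over the 6 other genes listed as luteal markers, the average in the controls was 0.50, -0.16, -0.47, 0.73, -0.17 and -0.44. It was -1.09, -0.36 and 0.21 in stage I and 0.24, -0.30 and -1.09 in stage II. The markers did not move as 1 block. Parm1 rose in stage II (3.05, adjusted p of limma = 3.4e-06) and Inhba fell (-1.77, adjusted p = 0.015), and Inhba was lowest among the controls in replicates 1 and 4. Control replicates 1 and 4 were thus highest in both averages and stage I replicate 1 was low in both. Stage II replicate 3 was low in the luteal average but near the control mean in cholesterol enzymes. On that array Akr1c18 (7.48), Inhba (8.67) and Ptgfr (10.16) lay under every control. Star (11.94) and Scarb1 (11.53) lay within the control range, and Parm1 (12.12) lay above all its controls. Star and Scarb1 were chosen after their values were seen. Star, which brings cholesterol into mitochondria for steroid synthesis, read 12.80 and 13.22 in control replicates 1 and 4 and 11.49 to 11.85 in the other controls. In stage I it read 11.34, 11.22 and 11.39, and in stage II 12.84, 11.06 and 11.94. Scarb1, the receptor that takes up cholesterol from HDL, read 12.77 and 12.87 in the same pair of controls and 11.20 to 11.92 in the others. In stage I Scarb1 read 11.19, 11.31 and 12.01, and in stage II 12.28, 11.24 and 11.53. Stage I replicate 3 thus lay above the controls other than that pair. The part of luteal content in the cholesterol result was not tested.

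**Figure D2:**
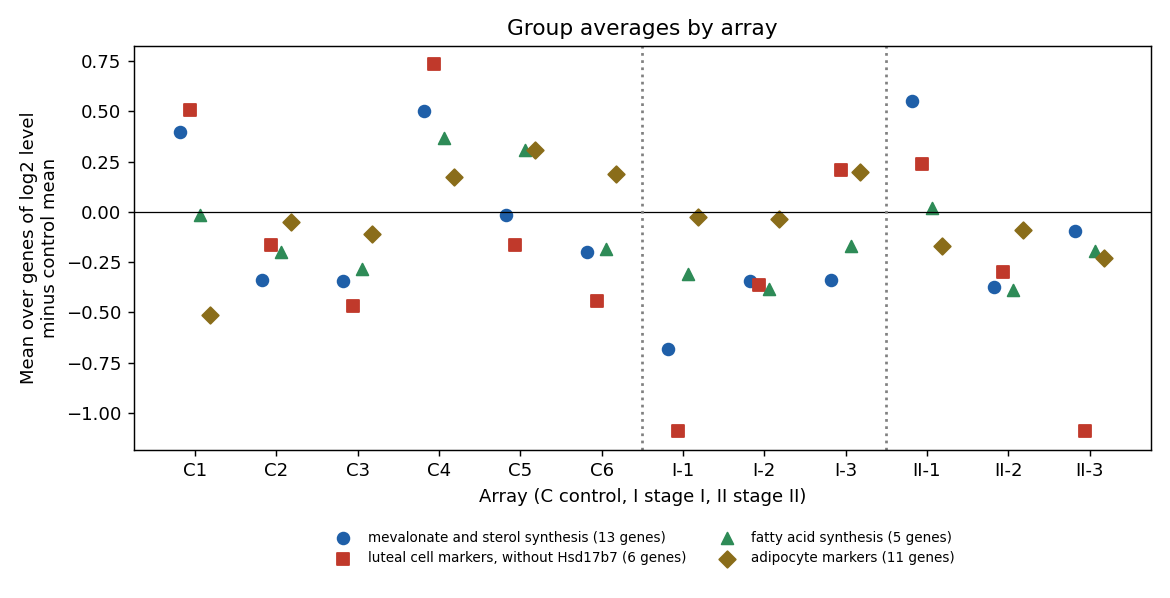
Mean over genes of the log2 level minus the control mean (vertical axis) on each array (horizontal axis) for 13 cholesterol enzymes, 5 fatty acid synthesis genes, 6 luteal markers and 11 adipocyte markers. C1 and C4 are high for both cholesterol enzymes (0.40 and 0.50) and luteal markers (0.50 and 0.73), and I-1 is low for both (-0.68 and -1.09).

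In stage I ovaries no member changed: 0 of 36 passed the threshold, an adjusted p of limma under 0.05, which 0.192% of all genes passed. Lower levels were nonetheless more frequent, with 28 of 36 members below the control mean (77.8%, against 50.7% of all genes) and a median difference of -0.17 (log2), against -0.00 over all genes. At an unadjusted p under 0.05, 5 members were low and 0 were high, which is 13.9% of the members, against 6.38% of all genes in either direction and 2.59% in the lower one. These were Thrsp, Fdps, Lss, Idi1 and Mvk. Without control replicates 1 and 4, 25 of 36 members were below the control mean (69.4%, against 49.1% of all genes), with a median of -0.07. At an unadjusted p under 0.05, 2 members (Fasn and Scd1) were then low, which is 5.56%, against 2.62% of all genes. The 3 stage I arrays lay outside the control range for 3 members, Mvk, Mvd and Stard4 (8.33%, against 3.68% of all genes). Without that pair of controls it was 4 (11.1%, against 8.96%). For the 13 cholesterol enzymes 11 were below the controls with a median of -0.50, and without control replicates 1 and 4 again 11 were below, with a median of -0.23. The 2 above were Acat1 (0.08) and Ggps1 (0.04) with all controls, and the same genes without that pair.

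In stage II ovaries 6 of 36 members changed against the controls (16.7%, against 21% of all genes), so with all arrays the share was not above the background. Srebf1, Fads3 and Acsl5 rose (8.33%, against 9.81% of all genes called higher), and Acat1, Elovl6 and Fads2 fell (8.33%, against 11.2% called lower). The arrays of the groups did not overlap for the same 6 genes (16.7%, against 22% of all genes). The median difference of the members was -0.02, against -0.01 over all genes. Which share was larger depended on the arrays. Without control replicate 1 the count was 9 (25%, against 21% of all genes). Without stage II replicate 1 or 2 it was 8 (22.2%, against 15.7% and 20.8%). The members' share was also slightly larger without control replicate 3 (16.7%, against 16.5%), and smaller without any other single array. Without stage II replicate 3 the count was 3 (8.33%, against 10.5% of all genes). Without control replicates 1 and 4 it was 8 (22.2%, against 24.2%), of which 5 were higher and 3 lower. The median was then 0.12, against 0.00 over all genes.

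Between the stages 7 of 36 members changed (19.4%, against 12.5% of all genes). Srebf1, Idi1, Ebp, Fads3 and Acsl5 were higher in stage II (13.9%, against 6.54%), and Acat1 and Fads2 were lower (5.56%, against 5.97%). The stages did not overlap for 16 members (44.4%, against 31.6% of all genes). The median difference was 0.30, against -0.01 over all genes, and it was 0.11 without stage II replicate 1. Leaving out replicate 1 or 3 of stage I, or replicate 3 of stage II, gave a count of 4 in each case (11.1%, against 10.4%, 5.53% and 5.78% of all genes), and it was 8 without control replicates 1 and 4 (22.2%, against 15% of all genes). Fitted on the 6 tumor arrays alone, without the controls' share in the estimate of the spread, 1 member passed, Fads3 (2.78%, against 3.59% of all genes).

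**Figure D3:**
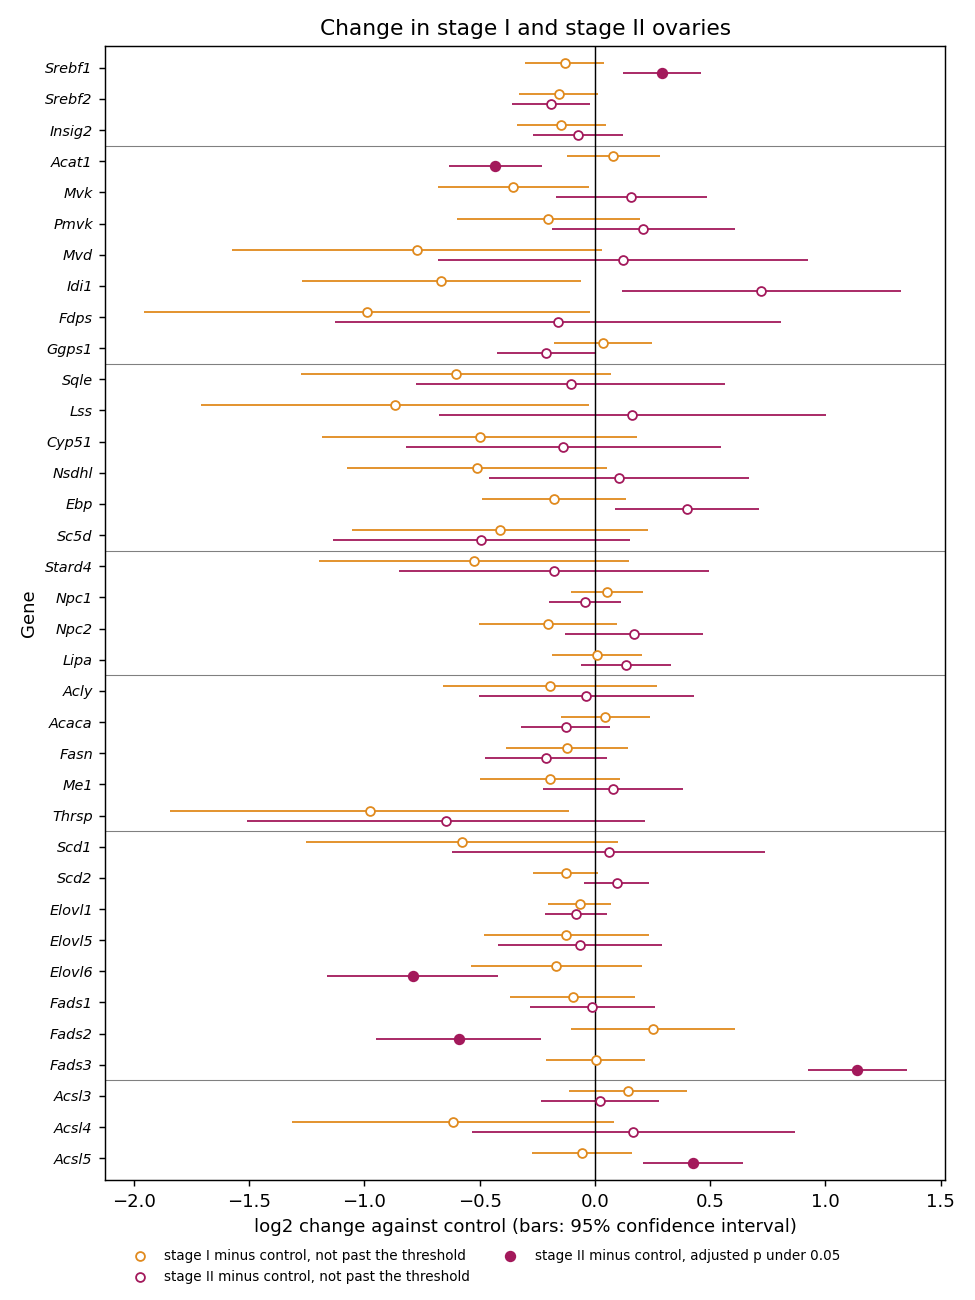
Difference from the control mean in log2 units (horizontal axis) with its 95% confidence interval for each measured gene (vertical axis, grouped by role) in stage I (orange) and stage II (purple); filled points passed the threshold. Filled points are 3 higher and 3 lower genes, all in stage II, and the stage I points of the mevalonate and sterol genes lie mostly below 0.

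Among the regulators, Srebf1, which encodes the SREBP-1 factor of fatty acid synthesis, rose in stage II. Its controls lay between 9.07 and 9.29 (median 9.18), the stage I ovaries read 8.96, 9.07 and 9.08, and the stage II ovaries 9.31, 9.40 and 9.66. Every stage II array was above every control and stage I array. The rise against controls was 0.29 ± 0.079 (SE), 1.22-fold, with an adjusted p of limma of 0.021, and against stage I it was 0.42 ± 0.091, 1.34-fold, with an adjusted p of 0.012. The first of these calls was lost without stage II replicate 3 (0.19, adjusted p = 0.12).

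Srebf2, the factor more devoted to cholesterol genes, read 8.37 to 8.62 in controls, 8.27, 8.30 and 8.55 in stage I, and 8.41, 8.27 and 8.34 in stage II. The stage II difference of -0.19 (95% interval -0.36 to -0.02) did not pass the threshold by limma (adjusted p = 0.11). Insig2, which retains SCAP in the endoplasmic reticulum, differed by -0.15 in stage I and -0.07 in stage II, and neither passed. The arrays measure transcripts only, so cleavage of SREBP proteins is not seen in them.

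The mevalonate arm was led by Idi1, the isopentenyl diphosphate isomerase that supplies the allylic unit for chain growth. Controls ranged from 8.88 to 9.97 (median 9.40), stage I read 8.45, 8.89 and 8.92, and stage II read 10.61, 9.48 and 10.33. Stage II lay above stage I on every array, while the controls overlapped both. Idi1 was 2.62-fold higher in stage II than in stage I (1.39 ± 0.32, SE, adjusted p of limma = 0.017). Against controls the differences were -0.67 in stage I (95% interval -1.27 to -0.06, adjusted p = 0.73) and 0.72 in stage II (0.12 to 1.33, adjusted p = 0.087). Without control replicates 1 and 4 the stage II rise against controls passed (0.97, adjusted p = 0.020), but that pair was picked from its values. The rise also passed without control replicate 1 (0.83, adjusted p = 0.049) or stage II replicate 2 (1.05, adjusted p = 0.018). The difference between stages missed the threshold without replicate 1 of stage I (adjusted p = 0.051) and without replicate 1 (0.057) or 3 (0.071) of stage II.

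Acat1 encodes the mitochondrial acetoacetyl-CoA thiolase, which serves ketone body and isoleucine metabolism, and the cytosolic enzyme that feeds mevalonate is the unmeasured Acat2. Its controls ranged from 11.18 to 11.43 (median 11.29), with 11.50, 11.43 and 11.24 in stage I and 11.03, 10.97 and 10.64 in stage II. All stage II arrays were below all others. Acat1 fell by 0.43 ± 0.093 (SE) against controls (adjusted p of limma = 0.0068) and by 0.51 ± 0.11 against stage I (adjusted p = 0.011). A second Acat1 probe set was also lower against controls (-0.39, adjusted p = 0.017 over all probe sets). Against stage I that probe set did not pass (-0.34, adjusted p = 0.075 over all probe sets).

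Fdps, which builds farnesyl diphosphate, had the widest range, from 10.91 to 13.16 in controls, with 10.47, 11.08 and 11.11 in stage I and 12.34, 11.10 and 11.71 in stage II. Its stage I difference of -0.99 had a 95% interval of -1.96 to -0.02 and an adjusted p of limma of 0.77. Mvd, the decarboxylase of the mevalonate arm, read 7.36 to 8.70 in controls, 6.98, 7.33 and 7.28 in stage I, and 9.03, 7.32 and 7.91 in stage II. Mvk, mevalonate kinase, read 7.32 to 7.99 in controls, 7.26, 7.17 and 7.24 in stage I, and 7.98, 7.46 and 7.76 in stage II. Both genes lay under every control in stage I, and neither passed. Mvk was 0.51 higher in stage II than in stage I (adjusted p of limma = 0.075), and that difference passed without control replicates 1 and 4 (adjusted p = 0.019), without control replicate 4 alone (0.039) or without stage II replicate 2 (0.65, adjusted p = 0.034). Pmvk, the second kinase of the arm, differed by -0.20 in stage I and 0.21 in stage II, and Ggps1, which makes geranylgeranyl diphosphate for prenylated proteins, by 0.04 and -0.21.

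Of the squalene and sterol enzymes Ebp passed, and only between the stages. Ebp is the sterol isomerase that moves a double bond in the sterol ring. Controls ranged from 9.60 to 10.17 (median 9.79), stage I read 9.59, 9.77 and 9.64, and stage II read 10.49, 9.95 and 10.30. It was 1.49-fold higher in stage II than in stage I (0.58 ± 0.17, SE, adjusted p of limma = 0.040), and the stages did not overlap. The call was lost without control replicate 5 (adjusted p = 0.056), stage I replicate 1 (0.097), 2 (0.078) or 3 (0.11), or stage II replicate 1 (0.13) or 3 (0.13). Against controls Ebp was 0.40 higher in stage II (95% interval 0.09 to 0.71, adjusted p = 0.067), which passed without control replicates 1 and 4 (0.54, adjusted p = 0.0098), without either of them alone (adjusted p = 0.045 and 0.030) and without stage II replicate 2 (0.023).

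Lss, lanosterol synthase, which closes the sterol rings, read 7.91 to 9.32 in controls, 7.07, 8.00 and 7.88 in stage I, and 9.54, 8.10 and 8.40 in stage II. Its difference from controls was -0.87 in stage I (95% interval -1.71 to -0.03, adjusted p of limma = 0.76) and 0.16 in stage II. The other Lss probe sets gave smaller differences in stage I, -0.44 and -0.35. Sqle, squalene epoxidase, read 9.71 to 10.81 in controls, 9.21, 9.94 and 9.86 in stage I, and 10.94, 9.61 and 9.95 in stage II. Stage II replicate 1 was above every control in both genes, while the other stage II arrays lay within or just under the control range. Nsdhl, a decarboxylating sterol dehydrogenase, Cyp51, the lanosterol demethylase, and Sc5d, the sterol desaturase, differed from controls by -0.51, -0.50 and -0.41 in stage I. In stage II they differed by 0.11, -0.14 and -0.49, and none passed. The wide control range of these genes leaves intervals such as -0.82 to 0.55 for Cyp51 in stage II.

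None of the 4 cholesterol handling genes passed by limma in any comparison. An unadjusted p under 0.05 was seen for 1 difference, that of Npc2 between the stages, as for 27.2% of all genes in that comparison. Stard4, a cytosolic sterol carrier, read 7.41 to 8.05 in controls, 6.93, 7.41 and 7.31 in stage I, and 8.63, 6.87 and 7.18 in stage II. Stage II replicate 1 was above and the other stage II arrays below all controls, and without replicate 1 the decrease in stage II passed the threshold of limma (-0.71, adjusted p = 0.029). Npc2, which hands cholesterol on inside the lysosome, read 11.76 to 12.39 in controls, 11.73, 11.83 and 11.91 in stage I, and 12.34, 12.11 and 12.14 in stage II. Its 0.37 between the stages had an adjusted p of 0.15. Npc1, the membrane partner of Npc2, and Lipa, the lysosomal lipase that frees cholesterol from esters, differed from controls by at most 0.05 in stage I, and by -0.04 and 0.13 in stage II.

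None of the 5 fatty acid synthesis genes passed by limma in any comparison either. An unadjusted p under 0.05 was seen for 1 difference, that of Thrsp in stage I, as for 6.38% of all genes in that comparison. Thrsp, a lipogenic gene abundant in fat tissue, ranged widely in controls, from 7.91 to 9.88, with 7.54, 7.61 and 8.34 in stage I and 8.44, 7.72 and 8.32 in stage II. Its difference was -0.98 in stage I (95% interval -1.84 to -0.11, adjusted p of limma = 0.72) and -0.65 in stage II (adjusted p = 0.28). Fasn, fatty acid synthase, read 9.80 to 10.53 in controls, 10.16, 9.99 and 10.16 in stage I, and 10.09, 9.90 and 10.04 in stage II. The stage II difference of Fasn was -0.21 (adjusted p = 0.25). It passed without control replicate 1 (-0.30, adjusted p = 0.027) and without control replicates 1 and 4 (-0.32, adjusted p = 0.026).

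Acly, which makes cytosolic acetyl-CoA from citrate, read 10.80 and 11.15 in control replicates 1 and 4 and 10.14 to 10.65 in the other controls. It read 10.41, 10.19 and 10.41 in stage I and 10.88, 10.26 and 10.35 in stage II, so stage I replicate 1 was not low. Its stage II difference was -0.04 (95% interval -0.50 to 0.43). Acaca, the acetyl-CoA carboxylase, was near 6 on most arrays and differed by -0.13 in stage II. It passed without stage II replicate 1 (-0.25, adjusted p of limma = 0.046). Me1, malic enzyme, a source of NADPH, differed by -0.19 in stage I and 0.08 in stage II.

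Fat cells also express these lipogenic genes. Of 11 measured adipocyte markers, 2 were higher in stage II than in controls (18.2%, against 9.81% of all genes) and 3 were lower (27.3%, against 11.2%). Adipoq, the fat cell hormone adiponectin, read 6.29 in control replicate 1, 8.49 to 9.88 in the other controls, 7.89, 8.16 and 9.31 in stage I, and 4.85, 6.17 and 4.88 in stage II. Fabp4, a fatty acid carrier of fat cells and macrophages, was 5.54-fold higher in stage II (2.47 ± 0.45, SE, adjusted p of limma = 0.0026). The list's level, as the mean deviation from the control mean, ran from -0.51 to 0.31 in controls, -0.04 to 0.20 in stage I and -0.23 to -0.09 in stage II. Control replicate 1 was lowest for Adipoq, Fasn and Scd1 among the controls, and also for Acaca (5.93). Other lipogenic genes were not low on that array. Acly (10.80) and Me1 (13.22) lay above every other control except replicate 4, and Thrsp (8.74) above all but replicates 4 and 5. The part of fat tissue in these results was not tested.

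The desaturases and elongases included Fads3, the member with the lowest adjusted p. Fads3, a desaturase of the same family as the enzymes of polyunsaturated fatty acid synthesis, acts on sphingoid bases. It read 8.40 to 8.88 in controls (median 8.69), 8.67, 8.77 and 8.62 in stage I, and 9.84, 9.70 and 9.93 in stage II. The stage II arrays stood far above all others, and the stage I arrays lay within the control range. Fads3 was 2.20-fold higher than in controls (1.14 ± 0.099, SE, adjusted p of limma = 8.6e-06) and 2.19-fold higher than in stage I (1.13 ± 0.11, adjusted p = 0.00015). In stage I the difference from controls was 0.00 (95% interval -0.21 to 0.22). Both calls held in all 22 alternatives.

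Fads2, the delta-6 desaturase that starts the conversion of essential fatty acids, went the other way. It read 9.60 to 10.09 in controls (median 9.75), 10.26, 9.77 and 10.11 in stage I, and 9.53, 9.33 and 8.76 in stage II. Each stage II array was below every other array. Fads2 fell by 0.59 ± 0.16 (SE) against controls (adjusted p of limma = 0.024) and by 0.84 ± 0.19 against stage I (adjusted p = 0.015). The call against controls was lost without stage II replicate 3 (-0.37, adjusted p = 0.14) and without control replicates 1 and 4 (-0.57, adjusted p = 0.053), and that against stage I without stage I replicate 3 (-0.81, adjusted p = 0.055).

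Fads1, the delta-5 desaturase that completes arachidonic acid, read 10.35 to 10.94 in controls, 10.59, 10.40 and 10.55 in stage I, and 10.78, 10.48 and 10.54 in stage II. Its stage II difference was -0.01 (95% interval -0.28 to 0.26). Fads3, Fads2 and Fads1 are consecutive protein-coding genes on chromosome 19 in RefSeq's GRCm38.p6 table, so adjacent genes gave a rise, a fall and a difference near 0 in the same ovaries.

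Elovl6, which lengthens palmitate-type chains, fell in stage II. Controls ranged from 10.21 to 10.73 (median 10.48), stage I read 10.29, 10.36 and 10.31, and stage II read 10.18, 9.68 and 9.23. The first stage II array lay just under the lowest control and the others well under it. The decrease was -0.79 ± 0.17 (SE, adjusted p of limma = 0.0069), it held in all 22 alternatives, and a second probe set gave -0.68 (adjusted p = 0.041 over all probe sets). Against stage I it was -0.62 with an adjusted p of 0.058, which passed without stage II replicate 1 (-0.87, adjusted p = 0.011).

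The fall of Elovl6, Fads2 and Acat1 coincided with low ovarian cell markers. The average of 6 theca and interstitial markers was -0.23 to 0.20 in controls, -0.05 to 0.15 in stage I and -1.43 to -0.49 in stage II. For 6 granulosa markers the stage II range was -1.22 to -0.40, with controls at -0.27 to 0.28, and for 8 oocyte markers it was -1.20 to -0.50, with controls at -0.22 to 0.25. Stage II replicate 3 was lowest of all arrays in these 3 averages and in Elovl6, Fads2 and Acat1. The average of 6 macrophage markers was -0.20 to 0.17 in controls, 0.14 to 0.82 in stage I and 0.69 to 0.94 in stage II. The part of cell composition in the changes of these genes, or in the rise of Fads3, Srebf1 and Acsl5, was not tested.

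The other members of the desaturase and elongase group did not pass. Scd1, the stearoyl-CoA desaturase that makes oleate-type fatty acids, ranged from 9.52 to 11.30 in controls, with 9.99, 9.78 and 9.95 in stage I and 10.72, 10.24 and 10.67 in stage II. Its stage II difference was 0.06 (95% interval -0.62 to 0.74), while a dimmer probe set gave 0.78 (adjusted p of limma = 0.10 over all probe sets). Scd2, the more widely expressed isoform, read 13.10 to 13.26 in controls, 12.94, 13.09 and 13.16 in stage I, and 13.37, 13.20 and 13.28 in stage II. It was 0.22 higher in stage II than in stage I (adjusted p of limma = 0.074), and the dimmest of its 3 probe sets gave 0.78 (adjusted p = 0.017 over all probe sets). Elovl1 and Elovl5, elongases of very long saturated and of polyunsaturated chains, differed from controls by -0.08 and -0.06 in stage II.

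**Figure D4:**
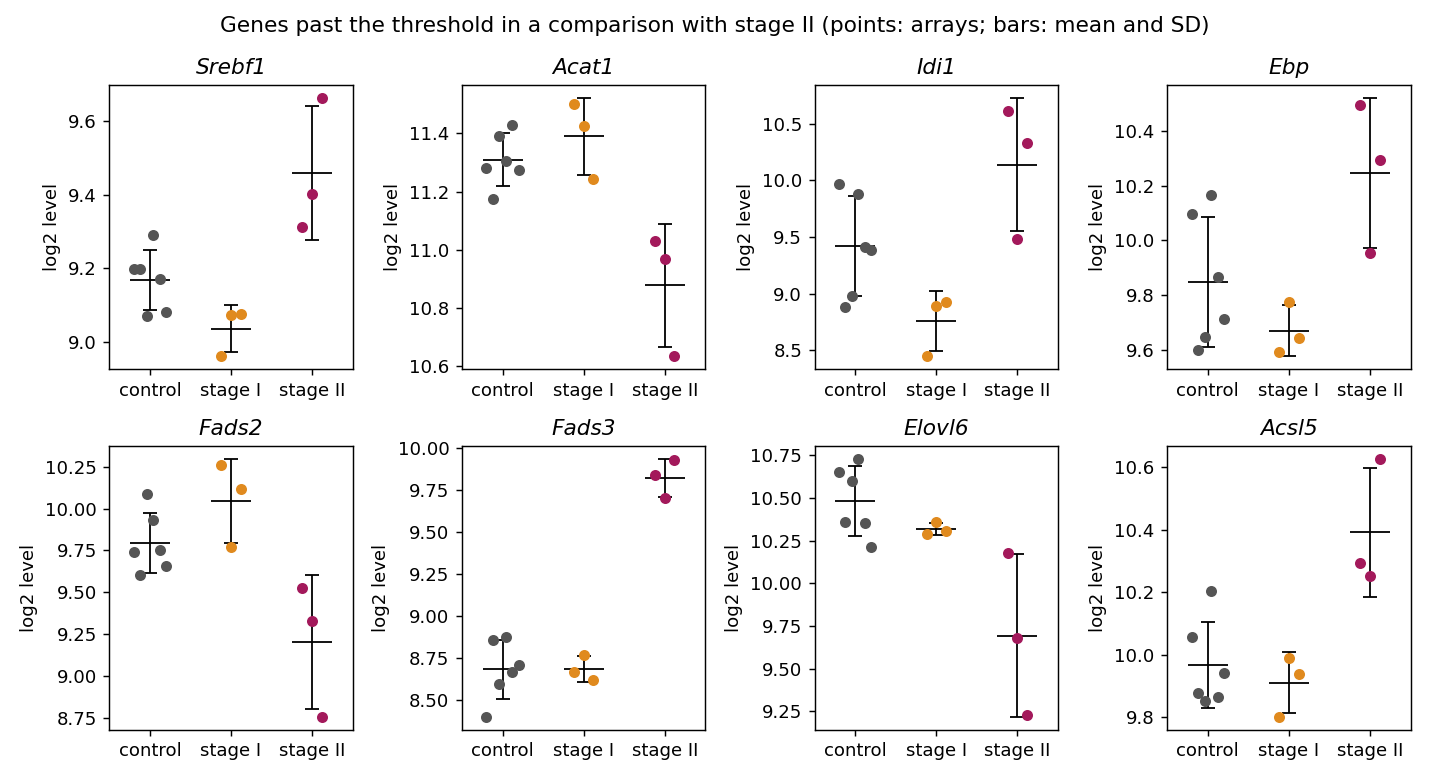
Log2 level (vertical axes, scaled to each gene) of the 8 genes that passed the threshold in a comparison with stage II, by group (horizontal axis); points are arrays and bars are the mean with SD of 6 control, 3 stage I and 3 stage II arrays. Fads3 shows the widest gap (stage II 9.70 to 9.93, controls 8.40 to 8.88), and Idi1 and Ebp separate the stages but not stage II from controls.

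Acyl-CoA synthetases activate fatty acids for use, and Acsl5, a mitochondrial and endoplasmic reticulum form, was the member of this group that rose. It read 9.85 to 10.20 in controls (median 9.91), 9.80, 9.99 and 9.94 in stage I, and 10.29, 10.25 and 10.63 in stage II. All stage II arrays were above all others. The rise was 1.34-fold against controls (0.43 ± 0.10, SE, adjusted p of limma = 0.011) and 1.40-fold against stage I (0.48 ± 0.12, adjusted p = 0.020). The first call was lost without stage II replicate 3 (0.31, adjusted p = 0.068), and the second without replicate 1 (adjusted p = 0.059) or 3 (0.055) of stage I or replicate 3 of stage II (0.078).

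Acsl4, which favours arachidonic acid, followed the cholesterol arrays with 11.17 and 10.93 in control replicates 1 and 4 and 9.67 to 10.35 in the other controls. It read 9.34, 9.84 and 10.19 in stage I and 10.89, 9.99 and 10.83 in stage II, and its differences from controls of -0.61 and 0.17 did not pass. Acsl3, a lipid droplet form, differed by 0.14 and 0.02.

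Other genes of the pathways were counted over whole lists. In stage I, 0 of 38 genes of these lists passed by limma (against 0.192% of all genes), and 2 had an unadjusted p under 0.05 (against 6.38%). Of 6 further cholesterol synthesis genes 0 passed by limma in stage II against controls (against 21% of all genes). An unadjusted p under 0.05 was seen for 2 (against 33.6% of all genes). All 6 lay above the control mean, with a median of 0.24, while 53.3% of all genes lay below it, with a median of -0.01. Msmo1, the sterol methyl oxidase, was 1.76-fold higher in stage II than in stage I (0.82 ± 0.23, SE, adjusted p of limma = 0.036). That call was lost without control replicate 5, without any of the stage I arrays, and also without replicate 1 or 3 of stage II (adjusted p from 0.051 to 0.12).

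Cholesterol uptake, efflux and related genes gave 4 higher and 1 lower of 10 in stage II against controls (50%, against 21% of all genes). Between the stages 3 were higher and 1 was lower (40%, against 12.5%). Stard5, a sterol and bile acid binding protein, rose from 8.06 to 8.90 in controls to 10.04, 9.89 and 9.93 in stage II, 3.20-fold (1.68 ± 0.19, SE, adjusted p of limma = 6.4e-05). Cyp27a1, which makes 27-hydroxycholesterol, was 2.90-fold higher than in controls (1.54 ± 0.17, adjusted p = 6.4e-05), with 9.72, 9.87 and 9.96 in stage II against 8.10 to 8.53. Abca1, a cholesterol exporter, fell by 0.51 ± 0.084 (adjusted p = 0.0014), from 12.08 to 12.34 in controls to 11.81, 11.87 and 11.55. The other calls against controls were the exporter Abcg1 (0.33, adjusted p = 0.012) and the lipoprotein receptor Vldlr (0.45, adjusted p = 0.043). Abcg1 missed the threshold without stage II replicate 1 or 3 (both adjusted p = 0.058), and Vldlr missed it without any of 7 single arrays (controls 1, 2, 5 and 6, the third stage I array, and the stage II arrays numbered 1 and 2; adjusted p from 0.052 to 0.18).

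Of 12 further fatty acid synthesis and elongation genes, 1 was higher and 2 were lower in stage II against controls (25%, against 21% of all genes). Between the stages 2 were higher (Acss2 and Elovl7) and 1 was lower (Mid1ip1), which is also 25%, against 12.5%. Acss2, which makes acetyl-CoA from acetate, was 3.17-fold higher than in stage I (1.67 ± 0.46, SE, adjusted p of limma = 0.035), a call lost without any single stage I array or without stage II replicate 1 or 3 (adjusted p from 0.064 to 0.12). Elovl7 (0.84, adjusted p = 0.034) lost its call without any single stage I array or without stage II replicate 1 or 2 (adjusted p from 0.059 to 0.11). Mid1ip1 (-0.72, adjusted p = 0.016) lost it without stage I replicate 2 (0.057) or stage II replicate 3 (0.070). Elovl7, an elongase of saturated chains, rose 2.34-fold against controls (1.23 ± 0.20, SE, adjusted p of limma = 0.0012), with 8.04, 7.85 and 7.43 in stage II and 6.23 to 7.19 in controls. Mid1ip1, an activator of acetyl-CoA carboxylase, fell by 0.54 (adjusted p = 0.018), which was lost without stage II replicate 1 (adjusted p = 0.066) or 3 (0.11). Elovl2, an elongase of long polyunsaturated chains, fell by 1.04 (adjusted p = 0.034), which was lost without control replicates 2, 3, 5 or 6 or any stage II array (adjusted p up to 0.19). Of 10 triglyceride and phospholipid genes 1 was lower (10%, against 11.2% of all genes), Gpam, the mitochondrial acyltransferase that begins triglyceride synthesis. It read 12.09 to 12.73 in controls, 11.98, 12.06 and 12.15 in stage I, and 11.89, 11.76 and 11.69 in stage II (-0.60 ± 0.13, adjusted p = 0.0075). Between the stages 1 of the 10 was higher (10%, against 6.54% of all genes), Agpat2 (0.54, adjusted p = 0.045). That call was lost in 11 of 22 alternatives, and against controls Agpat2 did not pass (0.40, adjusted p = 0.060).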

How the data were processed

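The authors deposited 1 log2 value per probe set and array. The scale was read from the values, while for the summary and normalization the method is not given in the sources used here. This table covers part of the array's probe set names, and no background was measured. Of 16376 probe sets, 14674 had 1 gene symbol in the platform annotation, 427 several and 1275 none, and 14632 Entrez identifiers were in RefSeq's GRCm38.p6 table, which changed 0 symbols. Each gene took its single-symbol probe set with the highest mean over 12 arrays (10949 genes, 2854 with more than 1 probe set).

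A model with 1 mean per group, over the 12 arrays, used limma 3.58.1 in R 4.3.3 (lmFit and eBayes, 9 residual and 3.13 prior degrees of freedom). P-values were adjusted by Benjamini-Hochberg over all genes, with 0.05 as the threshold. The script was tested on simulated data. Per role, members past the threshold were named, or else those with the largest difference; the other members are given by value. From the other lists, up to 4 genes past the threshold were taken. Star, Scarb1, Inha and Zp3 lie outside this rule, having been picked with their values known. The members and lists were chosen with earlier results of these data known. Alternatives were quantile normalization, centring of medians, omission of the dimmest 25 percent of genes, averaged probe sets, every probe set tested, fits without the uncompared group, array weights, a trended robust prior, the replicate number as a block, and arrays left out.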

Additional observations from a re-analysis of the deposited data

Results flagged for a closer look

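The change in stage II differed from that in stage I for 7 members, by limma's test of stage II against stage I over all genes, and both changes use the same controls. Stage II was higher for Srebf1 (0.42 on the log2 scale), Idi1 (1.39), Ebp (0.58), Fads3 (1.13) and Acsl5 (0.48). It was lower for Acat1 (-0.51) and Fads2 (-0.84). In the 6 controls, 0 of 36 members had a single array far from the rest by Dixon's criterion, which chance alone would pass in about 5% of genes. The criterion looks for 1 array alone and can miss a pair that is high together. Control replicates 1 and 4 were the highest pair in 23 of 36 members (63.9%, against 18.2% of all genes). The count of 0 therefore does not show that the controls were alike.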

How the results depend on the processing

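None of the member differences that passed reversed in any of 22 alternatives, and of the 13 calls 3 held in all of them (Elovl6 and Fads3 in stage II against controls, Fads3 between the stages) and 6 held without any single array. Of 95 differences that did not pass, 12 passed in at least 1 alternative. The count of members past the threshold in stage II against controls went from 6 to 2 with the replicate number as a block, and between the stages from 7 to 2 with that block, 1 in the fit of the compared groups alone and 12 with array weights. The count over all genes moved with it, from 2302 to 1090 in stage II with the block, and between the stages from 1370 to 602, 393 and 2308 in the same order. Same-numbered arrays correlated between -0.13 and 0.20 over genes. Differently numbered arrays were not set beside them, so these values do not settle whether the numbers pair the samples. With single arrays left out, the count ran from 0 to 0 in stage I, 3 to 9 in stage II and 4 to 8 between the stages. The median difference of the members ran from -0.22 to -0.12, from -0.13 to 0.14 and from 0.11 to 0.39 in the same order. Beyond the settings that leave out arrays or use fewer of them, the cause was not tested. Signal over background was not measured, so dim genes carry no detection limit.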
